A study of Mus musculus with 25 samples.

Results

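Cbfa2t3, Cbfa2t2 and Runx1t1 encode the ETO family of corepressors, and the binding locations of the transcription factors GATA1 and TAL1 in or near these 3 genes were examined in mouse erythroid cells. Members were the entries of 6 location lists that lay in a gene body or within 50 kb of it, and they numbered 350 of 166131 entries. Cbfa2t3 held 287 of them, Cbfa2t2 held 61 and Runx1t1 held 2. The family was selected on the number of TAL1 locations in these lists, which was already known to be high at Cbfa2t3. The counts that follow are therefore a description and carry no test.

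Binding was measured by ChIP-exo, in which an exonuclease trims immunoprecipitated DNA up to the point where the protein is cross-linked. In G1E-ER4 cells, TAL1 was measured in 5 libraries of untreated cells (0 h) and in 3 libraries each at 3 h and 24 h of estradiol, labelled as 10 nM. GATA1 was measured there in 3 libraries at each of these times, and the parental G1E cells, which were not treated, gave 4 TAL1 libraries and 1 GATA1 library. G1E is an erythroid progenitor line of strain 129 that lacks Gata1, and G1E-ER4 is a line derived from it in which GATA1 was put back as a fusion to the estrogen-binding domain, so that estradiol activates it. Both are single cultured lines, and the study's methods give another estradiol concentration than the labels. The antibodies were sc265 for GATA1 and sc12984 for TAL1.

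Each factor had 3 lists. Peak pairs are peaks on opposite strands joined into 1 cross-linking point, MultiGPS locations are calls of a second program that models the tag pattern, and final locations are the MultiGPS locations with a peak pair within 100 bp. Each list pools the times of 1 factor and holds single base positions in mm9 with no tag count and no score. In the study's text the GATA1 calls come from the G1E-ER4 line, whereas by the labels a G1E library also belongs to these lists. Values per replicate, per time or per cell line were thus not analysed here, and the depth behind a location is unknown. An exact binomial interval at 95% beside a share covers counting error only. It treats locations as independent, so it is too narrow where neighbours in a cluster share a property.

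ETO proteins do not bind DNA by themselves. They are brought to it by other proteins and in turn bring in NCoR and histone deacetylases, which lower transcription. ETO2, the product of Cbfa2t3 that is also called MTG16, is known as the corepressor that sits in the erythroid complex of TAL1, GATA1, E proteins, LMO2 and LDB1. MTGR1, the product of Cbfa2t2, is its close relative and can form oligomers with it. ETO, the product of Runx1t1, is best known from human acute myeloid leukemia, where a chromosomal translocation fuses it to RUNX1.

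The sequences that carry the pattern at Cbfa2t3 are the densest part of its upstream TAL1 cluster and the region before its first start site. Both are read from the plus strand of mm9, while Cbfa2t3 is transcribed from the minus strand. Capitals mark 3 motifs searched on both strands. The first is WGATAA, the GATA factor site, spelled AGATAA or TGATAA. The second is the E-box CAGATG or CAGCTG, a site of TAL1 and its E protein partners. The third is a TG that stands 7 or 8 bases before WGATAA, which is the composite site of the 2 factors and reads as CA after a site on the minus strand. A match is a string of letters and not a measured site.
Upstream cluster of Cbfa2t3, chr8:125244211-125244510: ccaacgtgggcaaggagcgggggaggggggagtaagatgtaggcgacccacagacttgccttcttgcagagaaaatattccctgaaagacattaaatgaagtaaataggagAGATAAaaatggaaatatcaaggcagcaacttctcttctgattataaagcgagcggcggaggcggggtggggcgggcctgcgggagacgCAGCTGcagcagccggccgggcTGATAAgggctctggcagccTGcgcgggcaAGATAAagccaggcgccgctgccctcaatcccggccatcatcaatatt
First start site of Cbfa2t3, chr8:125223024-125223323: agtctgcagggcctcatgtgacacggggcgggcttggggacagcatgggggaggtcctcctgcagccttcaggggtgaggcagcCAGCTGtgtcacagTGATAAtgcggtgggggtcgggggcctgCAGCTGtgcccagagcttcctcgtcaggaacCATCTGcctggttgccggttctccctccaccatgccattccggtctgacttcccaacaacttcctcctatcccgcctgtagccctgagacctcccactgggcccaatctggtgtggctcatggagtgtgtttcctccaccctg

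The upstream stretch held 9 TAL1 and 2 GATA1 final locations, 3 WGATAA and 1 E-box. The start-site stretch held 4 TAL1 and 0 GATA1 final locations, 1 WGATAA and 3 E-boxes. Of the 300-bp regions at the same place before the first start site of all 22208 protein-coding genes, 19.2% held WGATAA, 26.8% held the E-box and 3.35% held TG before WGATAA. Of the 300-bp regions around the 15209 final TAL1 locations of the whole list, 80.2%, 49.9% and 47.3% held them.

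Cbfa2t3 (ENSMUSG00000006362.9) lies on chromosome 8 from 125152639 to 125223009 of mm9, on the minus strand. It had 48 final TAL1 locations, 13 in the gene body, 34 in the upstream flank and 1 in the downstream flank. Its 9 final GATA1 locations were split into 4 in the body, 5 upstream and 0 downstream. Most of the TAL1 locations thus lay before the gene, and 19 of them were in a single cluster of 1084 bp. Within 25 kb upstream of the first start site stood 32, against 9 within 25 kb inside it. Clusters counted as 1 left 11 stretches, which were not mostly upstream. The list of MultiGPS locations had 50 for TAL1 and 9 for GATA1. Peak pairs numbered 129 for TAL1, with 89 in the upstream flank, and 42 for GATA1, with 24 there. All lists gave more entries to the upstream flank than to the body, whichever factor was read.

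Among 22208 protein-coding genes, Cbfa2t3 ranked 2 by final TAL1 locations, and 40.3% of all genes had any. By final GATA1 locations it ranked 147, tied with 67 other genes, and 42.7% of all genes had any. At least as many GATA1 locations were found at 0.964% of genes, so that Cbfa2t3 was high in both lists and ranked higher for TAL1. With flanks of 10 kb in place of 50 kb it had 23 TAL1 and 5 GATA1 locations and ranked 10 and 199. Counted per kb of window, it ranked 2 for TAL1, with 0.282 locations per kb, and 346 for GATA1, with 0.0528 per kb. By peak pairs it ranked 2 for TAL1 and 57 for GATA1, in lists where 78.0% and 72.1% of all genes had at least 1 pair. The gene ranked directly above it was Gm20388, whose annotated body of 4435 kb contains the whole of Cbfa2t3 and held 166 TAL1 locations in its window. The gene ranked directly below was Zfpm1, which encodes the GATA1 cofactor FOG1 and had 37 TAL1 and 21 GATA1 locations.

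**Figure D1:**
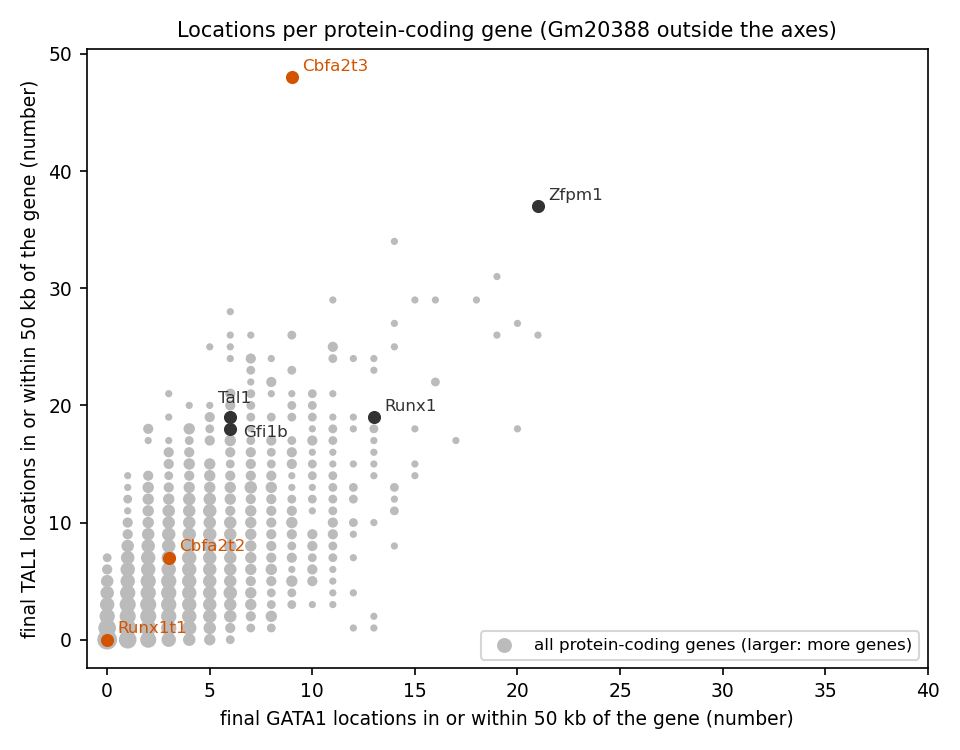
Final TAL1 locations (vertical axis) against final GATA1 locations (horizontal axis) in or within 50 kb of each protein-coding gene, with the ETO family in orange, the 4 listed partner genes with the most TAL1 locations in black and all genes in grey, where a larger point stands for more genes. Cbfa2t3 stands at 48 TAL1 and 9 GATA1 locations, above all other genes drawn, Cbfa2t2 at 7 and 3 and Runx1t1 at 0 and 0, while Gm20388 lies outside the axes.

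Cbfa2t2 (ENSMUSG00000038533.9) lies on chromosome 2 from 154262217 to 154365092, on the plus strand. It had 7 final TAL1 locations, 5 in the body, 0 upstream and 2 downstream, and 3 final GATA1 locations, all in the body. For TAL1 it ranked 1210, and 7.20% of genes had at least as many. For GATA1 it ranked 2098, and 15.6% of genes had at least as many. Cbfa2t2 thus had more locations than most genes, and none of either factor lay in its upstream flank. Its peak pairs numbered 17 for TAL1 and 20 for GATA1, so that GATA1 pairs were the more frequent there, unlike at Cbfa2t3.

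Runx1t1 (ENSMUSG00000006586.9), on chromosome 4 from 13670583 to 13820796 of the plus strand, had 0 final and 0 MultiGPS locations of either factor. It had 1 GATA1 peak pair, in an intron at 13797418, and 1 TAL1 peak pair at 13849016, in the downstream flank and inside the processed transcript Gm11823. The closest final GATA1 location outside its window stood 907572 bp from the gene body and the closest final TAL1 location 1062373 bp from it. The 3 genes of the family thus had 48, 7 and 0 final TAL1 locations.

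At the limit of 50 kb, the outermost final TAL1 location inside the window of Cbfa2t3 stood 37325 bp from the gene body and the next one outside at 68259 bp, and for GATA1 these were 37239 and 64102 bp. At Cbfa2t2 the outermost final TAL1 location inside stood at 44777 bp and the next outside at 76579 bp.

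**Figure D2:**
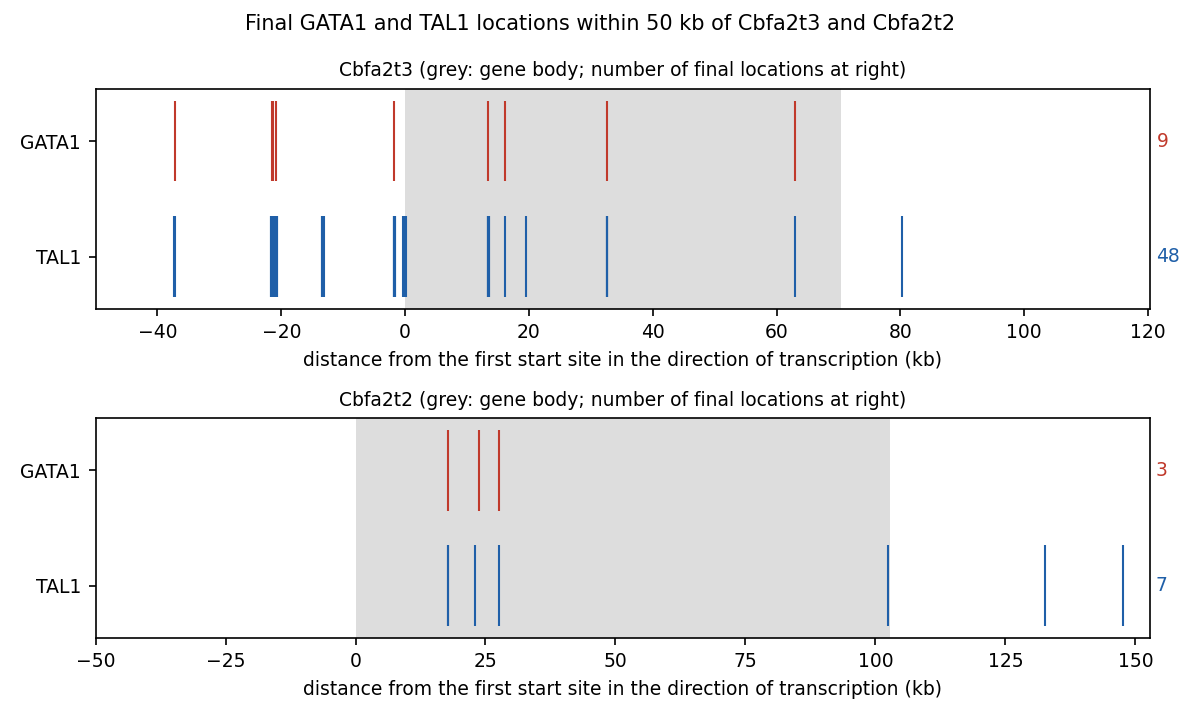
Final GATA1 (red) and TAL1 (blue) locations along Cbfa2t3 and Cbfa2t2, by distance from the first start site in kb, counted in the direction of transcription, with the gene body in grey and the window of 50 kb on either side. At Cbfa2t3 the TAL1 locations gather in a few groups at and before the start site, while at Cbfa2t2 the 3 GATA1 locations lie 17.8, 23.8 and 27.6 kb inside the gene.

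The 48 TAL1 locations of Cbfa2t3 fell into 11 separate stretches when neighbours under 500 bp apart were joined, which is the definition of a homotypic cluster used for these data. There were 7 clusters of 2 or more locations and 4 single locations. In all, 44 of 48 TAL1 locations were in a cluster (91.7%, interval 80.0 to 97.7%), against 64.3% of the 15154 TAL1 locations outside the 3 genes. The 44 locations lay in only 7 clusters, so this interval, which treats locations as independent, is too narrow. The gene was chosen for its number of TAL1 locations, so this share was not tested. Of the 9 GATA1 locations, 2 were in a cluster (22.2%, interval 2.81 to 60%), against 13.7% outside.

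The largest cluster held 19 TAL1 locations over 1084 bp, from 125243666 to 125244750, with its middle 21.2 kb before the first start site. It was the only one with 19 or more among 2906 TAL1 clusters in the whole list, of which 566 had at least 5. Neighbouring locations in it stood a median of 44.5 bp apart, with gaps of 1 to 145 bp. Locations 1 bp apart, at 125244231 and 125244232 and at 125244489 and 125244490, count separately in its size. Cluster sizes were not compared with such locations counted once. Its 19 locations had 36 TAL1 peak pairs within 100 bp, and 12 GATA1 peak pairs were within the same distance. GATA1 had 3 final locations in it, at 125243822, 125244337 and 125244449. TAL1 calls outnumbered GATA1 calls in both kinds of list, but the cluster was defined by TAL1 locations and picked as the largest. This excess was therefore not tested.

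The cluster held fewer motifs than locations, with 5 WGATAA and 4 E-boxes for 19 TAL1 locations. Its 4.29 WGATAA per kb stood beside 4.01 per kb over the 566 TAL1 clusters of at least 5 locations and 1.41 per kb over chromosome 8. The 5 sites stood on the plus strand, and 3 of them had a TG 8 bases before. The printed stretch holds 3 of the 5 sites, AGATAA at 125244322, TGATAA at 125244433 and AGATAA at 125244463.

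A second cluster lay across the first start site of Cbfa2t3. It held 6 TAL1 locations from 125222831 to 125223313, of which 2 were in an exon, 178 and 40 bp inside the gene, and 4 stood 54, 95, 180 and 304 bp before it. All 6 also lay in the processed transcript Gm10612, which is annotated on the other strand. No GATA1 final or MultiGPS location was within 1000 bp, and the closest GATA1 final location stood 1535 bp away and the closest GATA1 peak pair 1526 bp away. TAL1 had 13 peak pairs within 100 bp of these locations and GATA1 had 0. The cluster thus carried TAL1 calls alone.

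The start-site cluster held 1 composite site. The TGATAA at 125223122 to 125223127 was preceded by a complete E-box, CAGCTG, with 8 bases between them, and the closest TAL1 location, at 125223104, lay 18 bp from TGATAA on the side of the E-box. It was the only one of 7 such sites at the gene whose TG ended a CAGATG or CAGCTG. The other 3 E-boxes of the cluster stood without a WGATAA in composite spacing. The TAL1 list pools G1E cells, which lack GATA1, with G1E-ER4 cells, so the cells in which these 6 calls arose cannot be told apart.

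**Figure D3:**
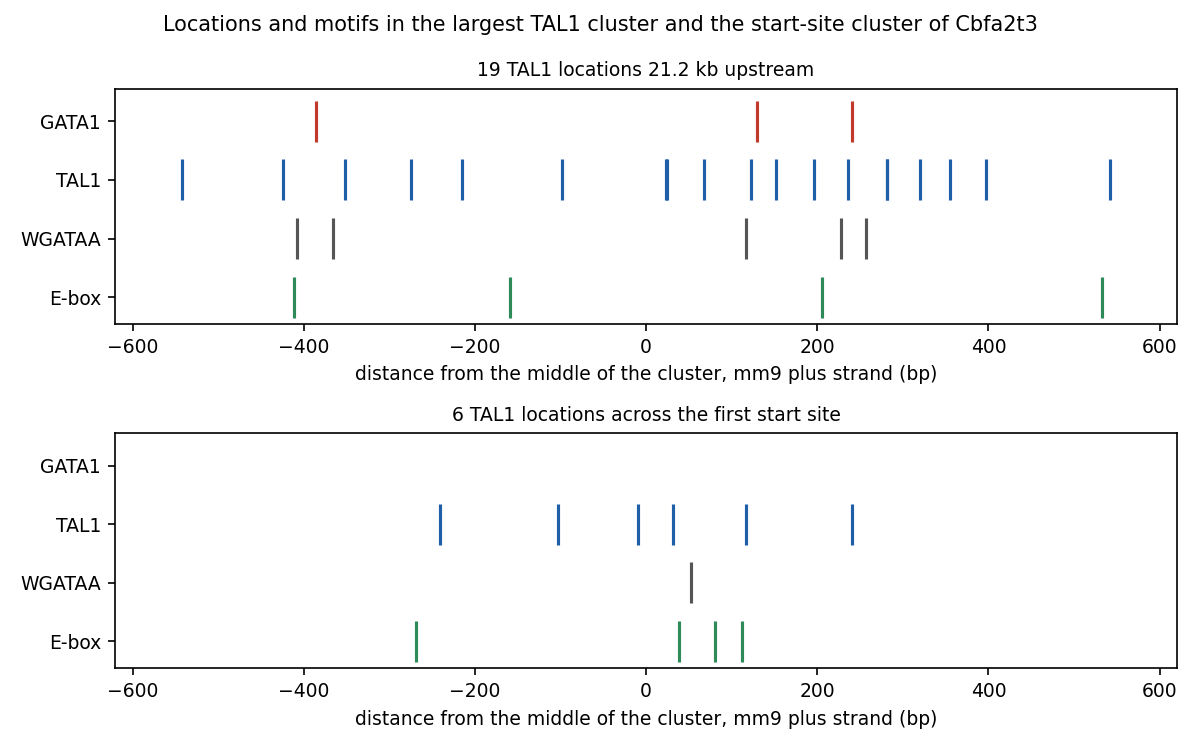
Final GATA1 and TAL1 locations, WGATAA and E-boxes in the cluster of 19 TAL1 locations (top) and in the 6 locations across the first start site (bottom), by distance in bp from the middle of each cluster along the mm9 plus strand, so that Cbfa2t3 is transcribed towards the left. The upper cluster holds 3 GATA1 locations, 5 WGATAA and 4 E-boxes, and the lower one holds 0 GATA1 locations, 1 WGATAA and 4 E-boxes.

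The remaining clusters were smaller. Before the gene, 5 TAL1 locations stood 1.70 kb upstream with 1 GATA1 location at 125224848, and 2 stood 37.3 kb upstream on either side of the GATA1 location at 125260248. A group of 4 stood 13.3 kb upstream, with 0 GATA1 locations and 2 GATA1 peak pairs, 1 of them at 125236241 and 3 bp from a TAL1 location. Inside the gene, 5 stood 13.5 kb and 3 stood 32.6 kb from the start site, each group with 1 GATA1 location. The single TAL1 locations were at 125203513, 125206945 and 125160056 in introns and at 125142738 in the downstream flank. Distances are to the first of 7 annotated start sites. Further start sites lie from 125201972 to 125202594, and the locations at 125203513, at 125206945 and 13.5 kb inside stood before those. Of the 11 stretches, 6 had a GATA1 final location under 40 bp away, 9 had a GATA1 peak pair within 100 bp and 8 held WGATAA.

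GATA1 was seldom found at Cbfa2t3 without TAL1. A TAL1 location stood under 40 bp from 8 of the 9 GATA1 locations, the distance that defines cooccupancy in these data (88.9%, interval 51.8 to 99.7%), against 35.9% of the 10278 GATA1 locations outside the 3 genes. The median distance of a GATA1 location to the closest TAL1 location was 27.0 bp at Cbfa2t3 and 149 bp outside. Seen from TAL1, 12 of 48 locations were cooccupied (25%, interval 13.6 to 39.6%), against 27.5% outside. Since the gene was chosen for its many TAL1 locations, neither share was tested.

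The 7 other GATA1 locations of Cbfa2t3 are shown with 40 bp on either side, as the GATA1 locations of the gene that the printed cluster does not hold.
Intron, 63.0 kb inside, chr8:125160000-125160080: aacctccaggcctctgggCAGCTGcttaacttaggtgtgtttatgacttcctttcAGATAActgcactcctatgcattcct
Intron, 32.6 kb inside, chr8:125190364-125190444: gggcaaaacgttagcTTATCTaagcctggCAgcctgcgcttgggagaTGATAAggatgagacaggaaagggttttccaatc
Intron, 16.1 kb inside, chr8:125206878-125206958: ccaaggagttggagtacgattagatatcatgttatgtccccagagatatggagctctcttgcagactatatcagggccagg
Intron, 13.4 kb inside, chr8:125209528-125209608: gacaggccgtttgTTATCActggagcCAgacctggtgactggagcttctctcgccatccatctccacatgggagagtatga
Upstream, 1.84 kb, chr8:125224808-125224888: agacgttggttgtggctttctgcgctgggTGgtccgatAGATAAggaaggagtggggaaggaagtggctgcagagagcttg
Upstream, 20.8 kb, chr8:125243782-125243862: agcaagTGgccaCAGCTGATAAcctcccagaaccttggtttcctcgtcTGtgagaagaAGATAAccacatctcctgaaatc
Upstream, 37.2 kb, chr8:125260208-125260288: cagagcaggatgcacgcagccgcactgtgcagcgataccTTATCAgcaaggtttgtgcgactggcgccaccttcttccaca

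All but 1 of these windows held WGATAA, and the exception, 16.1 kb inside the gene, held the letters GATA or their complement 4 times. That location had 4 GATA1 peak pairs within 100 bp and a TAL1 location 27 bp away. At 20.8 kb upstream the E-box CAGCTG and TGATAA shared their last and first 2 bases, and a second site, AGATAA, followed. Both WGATAA sites there had a TG 8 bases before. At 32.6 kb the window held 2 sites on opposite strands, AGATAA on the minus strand with a TG 8 bases before and TGATAA on the plus strand. At 1.84 kb upstream the GATA1 location fell on AGATAA itself, and a TG stood 7 bases before. The location 37.2 kb upstream, which also fell on its site, was the one without a TAL1 location under 40 bp, with the closest at 55 bp.

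Over both factors, 14 different WGATAA sites lay within 40 bp of a location of Cbfa2t3, 10 on the plus and 4 on the minus strand. A TG stood 7 or 8 bases before 7 of them. A TAL1 location was within 40 bp of 13 of the 14 sites. Read along the strand of WGATAA, the closest one lay before the site at 9 and after it at 4. These were 5 and 2 at sites with the TG and 4 and 2 at sites without it. A GATA1 location was within 40 bp of 11 sites, before the site at 7 and after it at 4. These were 5 and 1 at sites with the TG and 2 and 3 at sites without it. By location, TG before WGATAA was found at 5 of 9 GATA1 locations (55.6%, interval 21.2 to 86.3%), against 21.8% outside. It was found at 9 of 48 TAL1 locations (18.8%, interval 8.95 to 32.6%), against 25% outside.

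The motif letters were not used to choose the genes, and 4 comparisons of Cbfa2t3 with all locations outside the 3 genes were tested by Fisher's exact test, two-sided, with p-values adjusted over the 4 by the Benjamini-Hochberg method. WGATAA was within 40 bp of 8 of 9 GATA1 locations (88.9%), against 66.5% outside, with an odds ratio of 4.04 and an adjusted p of 0.384. The E-box was at 3 of 9 GATA1 locations (33.3%), against 17.1% outside, with an odds ratio of 2.42 and an adjusted p of 0.380. WGATAA was at 16 of 48 TAL1 locations (33.3%), against 46.0% outside, with an odds ratio of 0.588 and an adjusted p of 0.334. The E-box was at 9 of 48 TAL1 locations (18.8%), against 21.7% outside, with an odds ratio of 0.832 and an adjusted p of 0.727. None of the 4 differences passed 0.05. The intervals are wide, from 51.8 to 99.7% for WGATAA near GATA1 locations and from 20.4 to 48.4% near TAL1 locations, and neighbouring locations share letters.

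**Figure D4:**
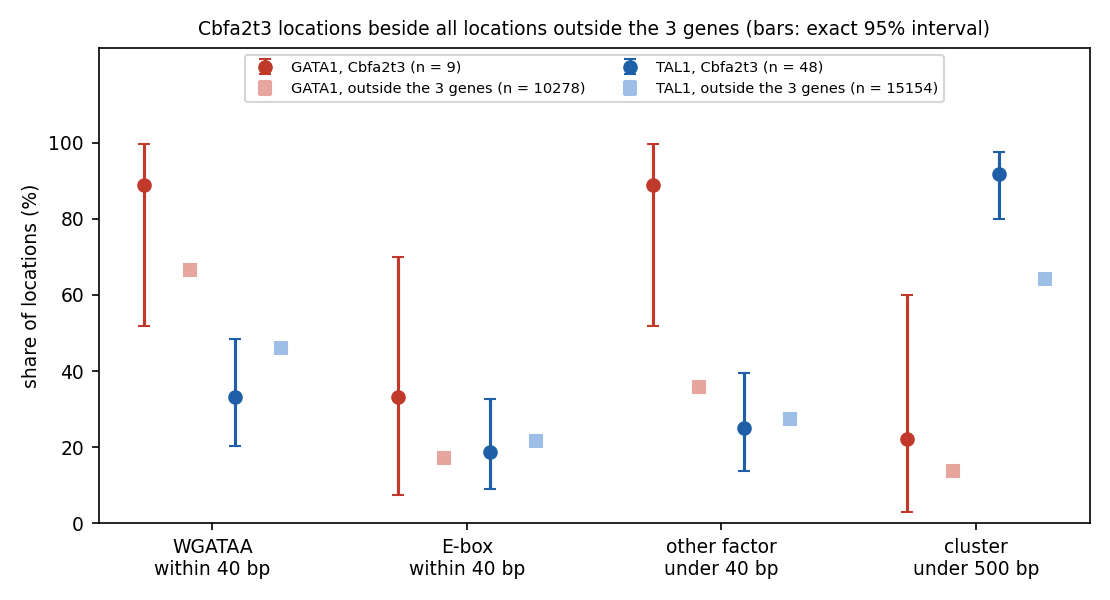
Share of GATA1 (red) and TAL1 (blue) locations in percent that had each property, for Cbfa2t3 (circles) and for all locations outside the 3 genes (squares), with exact 95% binomial intervals as bars. For both motifs the Cbfa2t3 intervals hold the outside share. Cooccupied were 88.9% of GATA1 locations at Cbfa2t3 against 35.9% outside, and 25.0% of TAL1 locations against 27.5%. Clustered were 91.7% of TAL1 locations against 64.3% outside, and 22.2% of GATA1 locations against 13.7%. The cooccupied and clustered shares were not tested, since the gene was chosen for its many TAL1 locations.

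Base composition differed alongside. The 81 bp around the TAL1 locations of Cbfa2t3 had a median of 58.0% G and C, against 48.1% outside, and around its GATA1 locations 49.4%, against 46.9%. The TAL1 locations of Cbfa2t2 had a median of 44.4%. The part of base composition in the TAL1 calls was not tested.

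Peak pairs stood close together at Cbfa2t3. Spacing and pairs per location depend on the density of calls that the gene was chosen for, so they were not tested. A TAL1 location there had a median of 6 TAL1 peak pairs within 100 bp, with a range of 1 to 9, against 3.00 outside. A GATA1 location had a median of 3.00 GATA1 pairs, with a range of 1 to 7, against 2.00 outside. Neighbouring locations share pairs, so that a pair can count for several of them. The 129 TAL1 pairs stood a median of 32.0 bp from the next TAL1 pair, against 82.0 bp over all 63546 pairs, and the 42 GATA1 pairs 34.0 bp, against 249 bp over all 46666.

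Pairs without a final location of their own factor within 100 bp show what the final lists left out. At Cbfa2t3 these were 28 of 129 TAL1 pairs, so that 78.3% were at a location, against 50.1% over the whole list. For GATA1 they were 14 of 42, so that 66.7% were at a location, against 46.1%. Since the gene was chosen for its many TAL1 locations, these shares were not tested. Of the 14 GATA1 pairs, 8 were within 100 bp of a TAL1 location and 6 were at neither. Of the 28 TAL1 pairs, 1 was within 100 bp of a GATA1 location. With pairs in place of locations, 27 of 48 TAL1 locations had a GATA1 pair under 40 bp away (56.2%, interval 41.2 to 70.5%), against 49.5% outside. The GATA1 pair list is longer than the final list, and the share was higher by pairs both at Cbfa2t3 and outside.

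At Cbfa2t2 the GATA1 locations held none of the exact sites within 40 bp, though some lay just beyond that distance. They are shown because 0 of 3 windows held AGATAA or TGATAA, against 66.5% of GATA1 locations outside the 3 genes. With 3 windows the exact interval reaches up to 70.8%, and no test was made.
Cbfa2t2, 17.8 kb inside, chr2:154279995-154280075: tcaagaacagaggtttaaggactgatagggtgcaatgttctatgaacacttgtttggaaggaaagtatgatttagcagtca
Cbfa2t2, 23.8 kb inside, chr2:154285955-154286035: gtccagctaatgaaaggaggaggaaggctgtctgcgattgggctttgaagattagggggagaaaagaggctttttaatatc
Cbfa2t2, 27.6 kb inside, chr2:154289758-154289838: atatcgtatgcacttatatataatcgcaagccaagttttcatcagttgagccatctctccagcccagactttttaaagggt

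Each window held the letters GATA or their complement, and 2 of 3 had a match to a weight matrix 8 bases wide learned from GATA1 locations, against 82.1% outside. The location 17.8 kb inside had 5 GATA1 pairs within 100 bp and stood between 2 TAL1 locations, at 154279973 and 154280094, 62 and 59 bp away. These 2 TAL1 locations formed the only cluster of the gene, and 3 AGATAA lay within 40 bp of them. Among these, AGATAA at 154279988 to 154279993 and at 154280077 to 154280082 stood just outside the printed GATA1 window, on either side of it. The location 27.6 kb inside was cooccupied, with a TAL1 location 17 bp away, and it too had 5 GATA1 pairs. An AGATAA lay just beyond its window, at 154289848 to 154289853. The location 23.8 kb inside had 1 GATA1 pair and its closest TAL1 location at 828 bp.

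Of the 7 TAL1 locations of Cbfa2t2, 5 had WGATAA within 40 bp (71.4%, interval 29.0 to 96.3%) and 3 had the E-box (42.9%, interval 9.90 to 81.6%). Of its 6 WGATAA sites, all near TAL1 locations, 2 had a TG 8 bases before. The 4 intronic TAL1 locations lay 17.8 to 27.6 kb inside the gene and had WGATAA and no E-box. The other 3 each had an E-box. They were in an exon near the end of Cbfa2t2, at 154364638, and in the downstream flank, at 154394885 and 154409869. The location at 154394885 lies in the body of E2f1, which encodes a cell cycle transcription factor, and the one at 154409869 lies between E2f1 and Pxmp4. The protein-coding genes Necab3, 1700003F12Rik, 1700007I08Rik and Pxmp4 also overlap the window and shared no entry with it.

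At Cbfa2t3, the body of Gm20388 held every entry of the window, and Gm10612 held 6 final TAL1 locations and 14 TAL1 peak pairs. The body of Galns shared 2 TAL1 peak pairs with the window, and Trappc2l and Pabpn1l shared 0 entries. Since lists give positions and no target, the gene that a location acts on is not known from them.

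The MultiGPS lists held 6 further locations at the 3 genes that had no peak pair within 100 bp and were not final. At Cbfa2t3 both were TAL1 locations in introns, at 125190661 and 125208888, 207 and 526 bp from the closest final TAL1 location. At Cbfa2t2 they were 1 GATA1 location at 154284982 and TAL1 locations at 154289557, 154408654 and 154410304. They changed the counts of Cbfa2t3 from final to MultiGPS by 2 for TAL1 and 0 for GATA1.

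A list of 16 genes, named the DNA-binding complex of ETO2, was read for genes that encode partners of ETO2. All 16 had a final TAL1 location in or within 50 kb, against 40.3% of all genes, and all 16 had a final GATA1 location, against 42.7%. The median was 7.50 TAL1 and 5.00 GATA1 locations a gene, against 0 and 0 over all genes. After Zfpm1, the highest were Tal1, with 19 TAL1 and 6 GATA1 locations, Runx1, a hematopoietic transcription factor, with 19 and 13, and Gfi1b, an erythroid repressor, with 18 and 6. The 16 listed genes thus all carried calls. That none of them had as many TAL1 locations as Cbfa2t3 follows from the rank of Cbfa2t3, since only Gm20388 had more.

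Corepressors and repressors known to bind ETO proteins were read from a list of 14 genes, which holds both proteins that ETO brings in and DNA-binding repressors such as Zbtb16 that bring ETO to DNA. A final TAL1 location was found at 8 of 14 (57.1%), against 40.3% of all genes, and a final GATA1 location at 10 of 14 (71.4%), against 42.7%. The medians were 1.00 and 2.00 locations a gene. The highest were Rcor1, which encodes the CoREST scaffold, with 8 TAL1 and 5 GATA1 locations, Hdac3, the deacetylase of NCoR complexes, with 6 and 3, Zbtb16, a zinc finger repressor, with 6 and 8, and Gps2, an NCoR subunit, with 5 and 3. Bcl6, a zinc finger repressor named after its values were seen, had 0 entries in all 6 lists.

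The genes whose 6 counts were most like those of Cbfa2t3, by the distance of log2(count + 1) over the 6 lists, were Atp8b1, Tbxas1, Gm22, Thsd4 and Gfod1, at distances of 1.43, 1.51, 1.53, 1.63 and 1.65. Atp8b1 had 29 TAL1 and 11 GATA1 final locations and Tbxas1 had 29 and 15. Gm22 had 34 and 14, Thsd4 had 23 and 9 and Gfod1 had 28 and 6. That none of the 5 reached the 48 TAL1 locations of Cbfa2t3 likewise follows from the rank of Cbfa2t3.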

How the data were processed

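ChIP-exo libraries of GATA1 and TAL1 were pooled by the authors into 6 deposited lists. The deposited values are positions in mm9, 1 per entry, and no count, score or replicate is given. Per the labels' processing notes the tools were CASAVA 1.7, bcl2fastq 2.15, Bowtie 1.00 and BWA 0.6.2 and 0.7.9a, and per the study's methods GeneTrack peaks were paired outside blacklisted regions and calls were enriched over input. All positions lay within the mm9 chromosomes.

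Genes were the 22208 protein-coding names of GENCODE vM1, the longest entry of each. Motifs were exact strings wholly within 40 bp of a location. The weight matrix was learned by expectation maximization from 500 GATA1 windows of 81 bp. Python 3.11.15, scipy 1.17.1, pysam 0.24.0 and samtools 1.23.1 were used, and the motif search and Fisher's exact test were tested on simulated data. The genes named were the family, protein-coding genes overlapping their windows, in each list the 4 genes or fewer that had most TAL1 locations, the genes ranked next to Cbfa2t3 and the 5 most like it. Values of some genes that this rule covers are not reported here. Members, lists (DNA-binding complex of ETO2, corepressors bound by ETO proteins) and tests were chosen with earlier results of these data known. Alternatives changed the flanks, lists, distances and motif definition.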

Additional observations from a re-analysis of the deposited data

How the results depend on the processing

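Of 82 alternative values, 65 kept their direction and side of the threshold or stayed close to the value given. For shares, close meant inside the exact interval of the value given, which is wide at the few locations of Cbfa2t2. There the cooccupied share of TAL1 locations counted as close at 14.3% under 40 bp and 42.9% under 100 bp. Counts of 0 at Runx1t1 are also among the 65, so this number is no measure of stability. With 10 kb flanks the final locations of Cbfa2t3 were 23 for TAL1 and 5 for GATA1, its TAL1 rank was 10, and the ranks of Cbfa2t2 were 720 for TAL1 and 611 for GATA1. With 100 kb flanks Cbfa2t2 had 5 GATA1 locations. Per kb, Cbfa2t3 ranked 346 for GATA1, and Cbfa2t2 ranked 2602 for TAL1 and 4840 for GATA1. Clusters counted as 1 gave 11 TAL1 locations at Cbfa2t3. Distances under 20 bp gave a cooccupied share at Cbfa2t3 of 8.33% of TAL1 and 44.4% of GATA1 locations, and under 100 bp these were 47.9% and 100%. The odds ratio of the E-box at GATA1 locations of Cbfa2t3 turned to 0 within 20 bp, with 0 of 9 locations against 9.52% outside and an adjusted p of 1.00 by Fisher's exact test, and the cause was not tested. No motif test passed 0.05 in any setting. In all, 4 alternatives were chosen after seeing the data. Without Gm20388, Cbfa2t3 ranked 1 for TAL1, and with GATA1 peak pairs in place of locations 56.2% of its TAL1 locations were near GATA1. Locations 1 bp apart, of which Cbfa2t3 had 3 pairs for TAL1 and the whole list 86, counted once left 45, and locations under 40 bp apart counted as 1 left 39.

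No paired analysis was possible because each list pools the libraries of a factor. For the same reason no replicate was left out. Tag counts were not in the lists, and locations of 1 time or cell line cannot be told apart from locations of all, and depth sets no interval here. The counts are counts of calls, and a window around a gene does not show which gene a location acts on.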
